A study of Mus musculus with 10 samples.

Results

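The genes described here encode secreted chemokines and myeloid growth factors, with 1 pattern receptor beside them. There are 10 of them: the chemokines Cxcl1, Cxcl2, Cxcl5, Ccl2 and Ccl7, the colony-stimulating factors Csf2 and Csf3, the cytokines Lif and Il6, and the receptor Clec4e. They were taken by symbol from both deposited tables, where each was found, among 52844 named genes in the Drosha table and 32931 in the Dicer1 table. The cells were OP9, a stromal line from mouse bone marrow that turns into adipocytes on treatment with rosiglitazone, which activates the adipocyte regulator PPARγ. All 4 groups received 1 µM of it for 10 days before RNA was sequenced. The Drosha knockout and its empty vector control, labelled as wild type in genotype, had 3 libraries each and were made in batch 2. The Dicer1 knockout and its own empty vector control had 2 libraries each and were made in batch 1. The labels do not say how the knockouts were made, whether a knockout is 1 clone, or whether replicates were separate cultures, so p-values rest on the spread among these libraries, and that spread may be technical. Knockout and batch cannot be told apart, and each knockout is therefore set against the empty vector of its own table.

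Chemokines guide leukocytes along gradients: Cxcl1, Cxcl2 and Cxcl5 attract neutrophils through Cxcr2, while Ccl2 and Ccl7 attract monocytes through Ccr2. Csf2 (GM-CSF) and Csf3 (G-CSF) drive the growth and maturation of myeloid cells, and Lif and Il6 signal through the shared receptor chain gp130 to Stat3. Clec4e encodes Mincle, a C-type lectin that senses mycobacterial glycolipids and a protein released by dying cells, and that signals through Card9 and Bcl10. In stromal and myeloid cells, genes of this kind are typically induced by NF-kB together with AP-1 and C/EBP factors, and their mRNAs are short-lived because AU-rich elements in the 3′ UTR recruit decay proteins such as Zfp36. Drosha and Dicer1 are the nuclear and the cytoplasmic enzyme that process microRNA precursors in turn.

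The promoters are shown because NF-kB is the best known route to these genes. The RefSeq promoter table for GRCm38.p6 held 6 of the 10 genes and not Cxcl5, Ccl2, Ccl7 or Csf3. The 250 bases before the annotated start are printed for 4 of them, 5′ to 3′, with any match to the NF-kB consensus in capitals.
Cxcl1 (chr5:90890995-90891244, plus strand): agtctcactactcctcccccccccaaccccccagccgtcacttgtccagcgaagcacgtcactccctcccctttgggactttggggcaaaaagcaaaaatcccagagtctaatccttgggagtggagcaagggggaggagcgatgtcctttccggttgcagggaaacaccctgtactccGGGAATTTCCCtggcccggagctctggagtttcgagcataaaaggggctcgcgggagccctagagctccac
Cxcl2 (chr5:90903649-90903898, plus strand): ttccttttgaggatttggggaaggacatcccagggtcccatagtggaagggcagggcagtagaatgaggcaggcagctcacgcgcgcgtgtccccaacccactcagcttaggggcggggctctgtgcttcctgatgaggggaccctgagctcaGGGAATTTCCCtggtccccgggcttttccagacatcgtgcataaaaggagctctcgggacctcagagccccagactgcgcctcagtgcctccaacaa
Il6 (chr5:30012864-30013113, plus strand): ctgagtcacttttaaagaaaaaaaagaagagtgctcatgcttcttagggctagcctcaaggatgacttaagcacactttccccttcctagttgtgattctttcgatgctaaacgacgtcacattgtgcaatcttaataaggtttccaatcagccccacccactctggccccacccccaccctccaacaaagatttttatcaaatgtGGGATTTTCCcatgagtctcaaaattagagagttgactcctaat
Clec4e (chr6:123289872-123290121, minus strand): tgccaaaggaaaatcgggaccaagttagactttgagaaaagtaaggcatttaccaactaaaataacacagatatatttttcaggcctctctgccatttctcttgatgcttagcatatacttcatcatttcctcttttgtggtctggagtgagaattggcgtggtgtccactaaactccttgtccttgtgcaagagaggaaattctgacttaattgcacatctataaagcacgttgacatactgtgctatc

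Cxcl1 and Cxcl2 held the same run of letters, GGGAATTTCCC, which matches the 10-letter consensus on both strands with overlap. Il6 held GGGATTTTCC and Lif held GGGACGCCCC, while no match lay in the window of Clec4e or Csf2. Among 32851 mouse promoters of the same length, 7.25% held a match on either strand. The AP-1 letters TGANTCA were found in Il6 and Lif and in 6.75% of promoters. The C/EBP letters TTNNGNAAT were found in Il6 alone of the 6 and in 10.2% of promoters, and the letters TATAAA in Clec4e alone of the 6 and in 12.4%. Both strands were searched for each motif. A match is a run of letters, not a measured binding site, and no factor's binding was measured here.

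The 3′ UTRs are shown because the AU-rich pentamer ATTTA marks short-lived cytokine mRNAs. In the GENCODE annotation of GRCm38, all 10 genes held at least 1 pentamer, as did 72.3% of 13873 3′ UTRs whose length lay within the range of the 10. The lines below give the 30 bases with the densest run in 5 of them, with pentamers in capitals.
Csf2: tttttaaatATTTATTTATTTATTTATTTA
Cxcl2: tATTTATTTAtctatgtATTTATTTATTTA
Cxcl1: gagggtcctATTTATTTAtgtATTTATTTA
Il6: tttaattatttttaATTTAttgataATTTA
Ccl2: tgatgccttaattaatattaaacttATTTA

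Csf2 held 9 pentamers in a 3′ UTR of 320 bases, Cxcl2 held 11 in 737 and Cxcl1 held 7 in 595. Il6 held 6 in 430 bases, Csf3 held 6 in 672 and Lif held 7 in 3183. Cxcl5 and Clec4e held 5 each, in 1114 and 1754 bases. The monocyte chemokines had the fewest, with 2 in Ccl7 and 1 in Ccl2. At least 4 pentamers were present in 8 of the 10 genes and in 25.3% of the compared 3′ UTRs. The longer form TATTTAT was present in 7 of the 10, against 27.3% of the compared 3′ UTRs, and was missing from Ccl2, Ccl7 and Clec4e.

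The study's title names miR-204 and miR-15b, so matches to bases 2 to 8 of these microRNAs (the seed) were counted, with let-7a and miR-146a for comparison. The mature RefSeq sequences have the seed in capitals, and the lines below them have the matching letters in capitals.
miR-15b-5p: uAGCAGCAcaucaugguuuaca
miR-204-5p: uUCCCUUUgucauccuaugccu
Csf2, match to miR-15b: ccagcttctcagacTGCTGCTt
Csf2, match to miR-204: ggaatttctgccttAAAGGGAc
Clec4e, match to miR-204: aatgcaacaagaagAAAGGGAt

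Matches to the miR-204 seed were present in Cxcl5, Csf2, Lif and Clec4e, and in 13.8% of the compared 3′ UTRs. Matches to the miR-15b seed were present in Csf2, Csf3 and Lif, and in 19.3%. Csf2 and Lif held both. No member held a match to let-7a or miR-146a, which occurred in 7.78% and 9.26% of the compared 3′ UTRs. No microRNA level was measured in these libraries.

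Values are TPM, which allow for gene length but not for a reading of sequencing depth. Depth is thus unknown, and no counting interval is given. The number of genes at 1 TPM or more ranged from 12580 to 13679 over the libraries. The batch 1 empty vector libraries differed most from each other, with a median absolute log2 difference of 0.218 against 0.118 in the Dicer1 knockout and 0.0782 to 0.1003 in the batch 2 groups. Drosha TPM was 38.9, 39.6 and 38.6 in its controls and 14.8, 13.7 and 15.6 in its knockout. Dicer1 TPM was 23.8 and 17.3 in its controls and 19.3 and 14.9 in the libraries labelled Dicer1 knockout, which overlapped (log2 change -0.25 ± 0.21, SE, adjusted p = 0.407, limma), so the level of that RNA did not check the label. TPM does not show where in a transcript its reads fell. Over all genes the median log2 change was 0.13 in the Drosha and 0.15 in the Dicer1 comparison. Of the genes called, 4528 were higher and 958 lower for Drosha, and 2627 and 1175 for Dicer1. With median-ratio scaling these splits were 2309 against 2114 and 1579 against 1580, with medians of all genes near 0, and with quantile normalization they were 2157 against 2234 and 1622 against 1480.

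The members were far more abundant in batch 1 than in batch 2 before any knockout is considered. Their summed TPM was 102.8 to 105.0 in the batch 2 empty vector libraries and 1435 to 1628 in those of batch 1. The ratio of the empty vector means, batch 1 over batch 2, was 35.7 for Ccl2, 25.1 for Cxcl1, 17.5 for Ccl7, 3.57 for Il6 and 2.26 for Cxcl5. The tables were normalized separately, so these ratios describe the deposited values and were not tested. In the batch 2 empty vector, Cxcl5 stood highest (44.2 to 44.3 TPM), followed by Ccl7, then by Ccl2 and Cxcl1, whose ranges overlapped, and then by Il6. In the batch 1 empty vector the order was Ccl2, Ccl7, Cxcl1 and Cxcl5, then Lif, Il6 and Cxcl2 with neighbouring ranges that overlapped, then Csf2, Clec4e and Csf3.

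**Figure D1:**
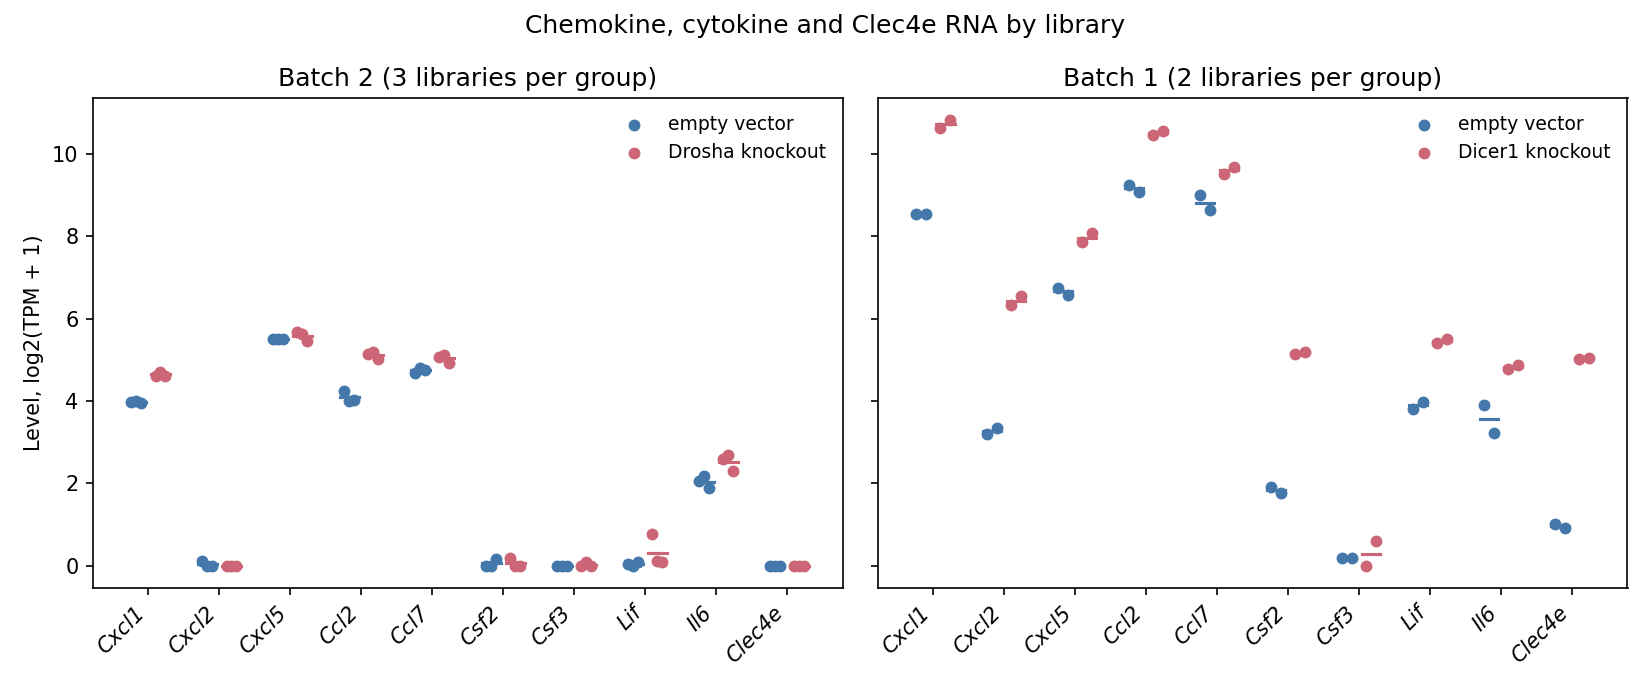
Level of each of the 10 genes in every library as log2(TPM + 1), with 1 panel per batch and 1 point per library. Empty vector and knockout have separate colours, and lines mark the group means. The 2 tables were normalized separately. All 9 tested members lay above the batch 1 empty vector in the Dicer1 knockout, and Csf2, Csf3, Cxcl2 and Clec4e did not exceed 0.136 TPM in any batch 2 library.

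In the Drosha knockout, Ccl2 and Cxcl1 rose on the deposited scale, with median-ratio scaling and with quantile normalization, while the calls on Ccl7 and Il6 depended on the scaling and Cxcl5 was not called. Of the 10, 5 passed the filter of at least 1 TPM in at least 3 of the 6 libraries: Cxcl1, Cxcl5, Ccl2, Ccl7 and Il6. Of these 5, 4 were called higher and 0 lower, against 35.8% called higher and 7.57% called lower among the 12660 genes tested (43.3% in either direction). The members, and the lists below, were chosen with earlier results of these data known. Counts and medians over them are thus descriptions and do not test a set. Their median log2 change was 0.48, beside 0.13 over all genes. Summed over the 10 members, TPM was 131.2 to 148.4 in the knockout. In bulk RNA, more cells of a type cannot be told apart from more RNA per cell.

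Ccl2, the main monocyte attractant, stood at 17.8, 14.9 and 15.4 TPM in the controls and at 34.0, 35.1 and 31.6 in the Drosha knockout. The groups were well apart, and the mean was 2.10-fold higher (log2 change 1.03 ± 0.08, SE, n = 3 per group, adjusted p = 6.76e-05, limma). It was the 246th largest rise among the genes tested, and the only one of the 5 above 1 on the log2 scale, a size reached by 2.11% of genes tested. Ccl7, which shares the receptor Ccr2, stood at 24.8, 26.9 and 25.9 TPM against 32.4, 33.8 and 29.2. Every knockout library again lay above every empty vector library, as for 44.3% of the genes tested, and the rise was 1.23-fold (log2 change 0.29 ± 0.06, adjusted p = 0.00877, limma). That call was lost with median-ratio scaling (log2 change 0.14, adjusted p = 0.156) and with quantile normalization (0.12, adjusted p = 0.244).

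Among the neutrophil attractants, Cxcl1 stood at 14.8, 15.05 and 14.4 TPM in the controls and at 23.5, 25.2 and 23.5 in the Drosha knockout. The replicates lay close together, and the rise was 1.63-fold (log2 change 0.67 ± 0.05, adjusted p = 7.08e-05, limma). Cxcl5, the most abundant member in both groups, stood at 44.3, 44.3 and 44.2 TPM against 49.6, 48.6 and 42.9. The third knockout library lay below the controls, the groups overlapped and no change was called (log2 change 0.08 ± 0.06, adjusted p = 0.281, limma). Without that library, Cxcl5 passed the threshold (log2 change 0.15, adjusted p = 0.0212, limma). Cxcl2 was listed at 0 in 5 of the 6 libraries and at 0.0792 TPM in the other, an empty vector library.

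Il6, the gp130 cytokine, stood at 3.19, 3.52 and 2.71 TPM in the controls and at 5.03, 5.44 and 3.92 in the Drosha knockout. The groups did not overlap, but the spread was wide for the size of the rise (1.53-fold, log2 change 0.48 ± 0.13, adjusted p = 0.0225, limma). The call was lost in 7 of 14 alternatives, among them median-ratio scaling (adjusted p = 0.0753) and quantile normalization (adjusted p = 0.0919). Lif was at 0.0357, 0 and 0.0715 TPM in the controls and at 0.700, 0.0756 and 0.0598 in the knockout, so 1 knockout library alone stood out. Csf2 reached at most 0.136 TPM and Csf3 at most 0.0600, and Clec4e was listed at 0 in all 6 libraries, so none of these 4 was tested.

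In the Dicer1 knockout, the members stood at higher levels than in batch 2, and every tested member was called higher. All members but Csf3 passed the filter of at least 1 TPM in at least 2 of the 4 libraries. Of these 9, 9 were called higher and 0 lower, against 21.5% called higher and 9.6% called lower among the 12239 genes tested (31.1% in either direction). As the members were chosen with earlier results of these data known, the count and median describe them and do not test the set. Their median log2 change was 1.56, beside 0.15 over all genes, and 8 of the 9 changes were above 1, as were 4.96% of all changes. In each of the 9, every knockout library lay above every empty vector library, as for 45.9% of the genes tested. The members' summed TPM was 4151 to 4600 in the knockout, which was 0.415% to 0.460% of all TPM. Clec4e reached 1 TPM in both knockout libraries and in 1 of the controls. It was thus tested only because of the libraries where it was high, and the counts above include it.

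The neutrophil attractants rose steeply. Cxcl1 stood at 369.0 and 370.4 TPM in the controls and at 1585 and 1794 in the Dicer1 knockout. The knockout libraries were far above both controls, a 4.57-fold rise (log2 change 2.19 ± 0.09, SE, n = 2 per group, adjusted p = 0.00171, limma) that made Cxcl1 the most abundant member. Cxcl2, encoded next to Cxcl1 and close to it in sequence, stood at 8.19 and 9.11 TPM against 79.7 and 91.7. It rose 9.91-fold (log2 change 3.17 ± 0.13, adjusted p = 0.00171, limma) and was the 12th largest rise among the genes tested. Cxcl5 stood at 105.3 and 94.6 TPM against 232.0 and 266.8, a smaller rise of 2.49-fold with groups apart (log2 change 1.31 ± 0.11, adjusted p = 0.00410, limma).

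The monocyte attractants stood highest in the batch 1 controls. Ccl2 stood at 607.0 and 536.8 TPM in the controls and at 1392 and 1494 in the Dicer1 knockout, 2.52-fold higher (log2 change 1.34 ± 0.10, adjusted p = 0.00348, limma). Ccl7 stood at 507.2 and 397.5 TPM against 729.5 and 813.8, the smallest change of the 9 (1.71-fold, log2 change 0.78 ± 0.14, adjusted p = 0.0150, limma). Both were above their controls in each knockout library. The call on Ccl7 was lost without the first or the second Dicer1 knockout library (adjusted p = 0.0651 and 0.0851) and with no filter on low TPM (adjusted p = 0.0609).

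Of the colony-stimulating factors, Csf2 stood at 2.75 and 2.42 TPM in the controls and at 34.1 and 35.6 in the Dicer1 knockout. With a 13.5-fold rise and close replicates, it was the 7th largest rise among the genes tested (log2 change 3.32 ± 0.16, adjusted p = 0.00174, limma). Csf3 stayed at trace level, at 0.142 and 0.135 TPM against 0 and 0.511, with groups that overlapped, and was not tested.

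The gp130 cytokines also rose. Lif stood at 12.99 and 14.7 TPM in the controls and at 41.3 and 44.0 in the Dicer1 knockout, 3.08-fold higher (log2 change 1.56 ± 0.13, adjusted p = 0.00406, limma). Il6 stood at 14.02 and 8.39 TPM against 26.2 and 28.2, where the control libraries differed most of all members relative to their mean (2.43-fold, log2 change 1.25 ± 0.24, adjusted p = 0.0185, limma). The groups were apart for both genes. The Il6 call was lost with either knockout library left out (adjusted p = 0.0858 and 0.0895) and with no filter on low TPM (adjusted p = 0.0694).

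Clec4e had the largest log2 rise of the 12239 genes tested in the Dicer1 comparison. It passed the filter only because of the knockout libraries, so its rank describes the values and its call is not read here. It stood at 1.02 and 0.885 TPM in the controls and at 31.4 and 32.1 in the knockout, a 33.2-fold difference of the means (log2 change 4.07 ± 0.17). The log2 change is smaller than that fold because 1 was added to each TPM before the log, which understates the change of low genes.

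**Figure D2:**
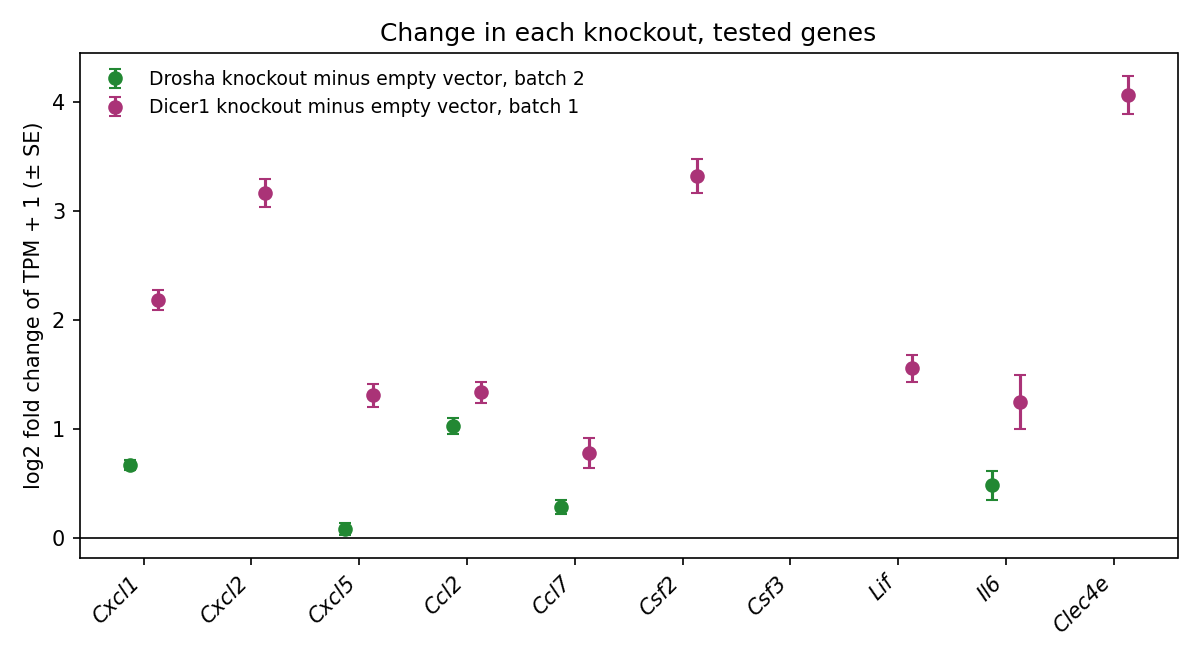
Log2 change of each tested member in each knockout against the empty vector of its own table, on the log2(TPM + 1) scale, with bars of 1 standard error. The Dicer1 knockout values run from 0.78 for Ccl7 to 4.07 for Clec4e and the Drosha knockout values from 0.08 for Cxcl5 to 1.03 for Ccl2.

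The makeup of the pool of member transcripts shifted as well. In the batch 2 empty vector, Cxcl5 made up 42.2% to 43.0% of the summed TPM of the 10 members and 32.7% to 34.1% in the Drosha knockout. Cxcl1 went from 14.03% to 14.4% in that empty vector to 16.2% to 17.9% in the Drosha knockout, and Ccl2 from 14.2% to 16.98% to 23.4% to 24.1%. In batch 1, Cxcl1 made up 22.7% to 25.8% in the empty vector and 38.2% to 39.0% in the Dicer1 knockout. Ccl2 was the largest part of the batch 1 empty vector pool at 37.3% to 37.4%, and Ccl7 the next at 27.7% to 31.2%. In the Dicer1 knockout these shares were 32.5% to 33.5% and 17.6% to 17.7%. None of these 6 pairs of ranges overlapped, but they are a choice among the members in both batches. In batch 1 the Lif share was 0.80% to 1.03% in the empty vector and 0.96% to 1.00% in the Dicer1 knockout, which overlapped. The Il6 share overlapped too, at 0.58% to 0.86% against 0.61% to 0.63%. Shares within a library depend on each other, and they were not tested.

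**Figure D3:**
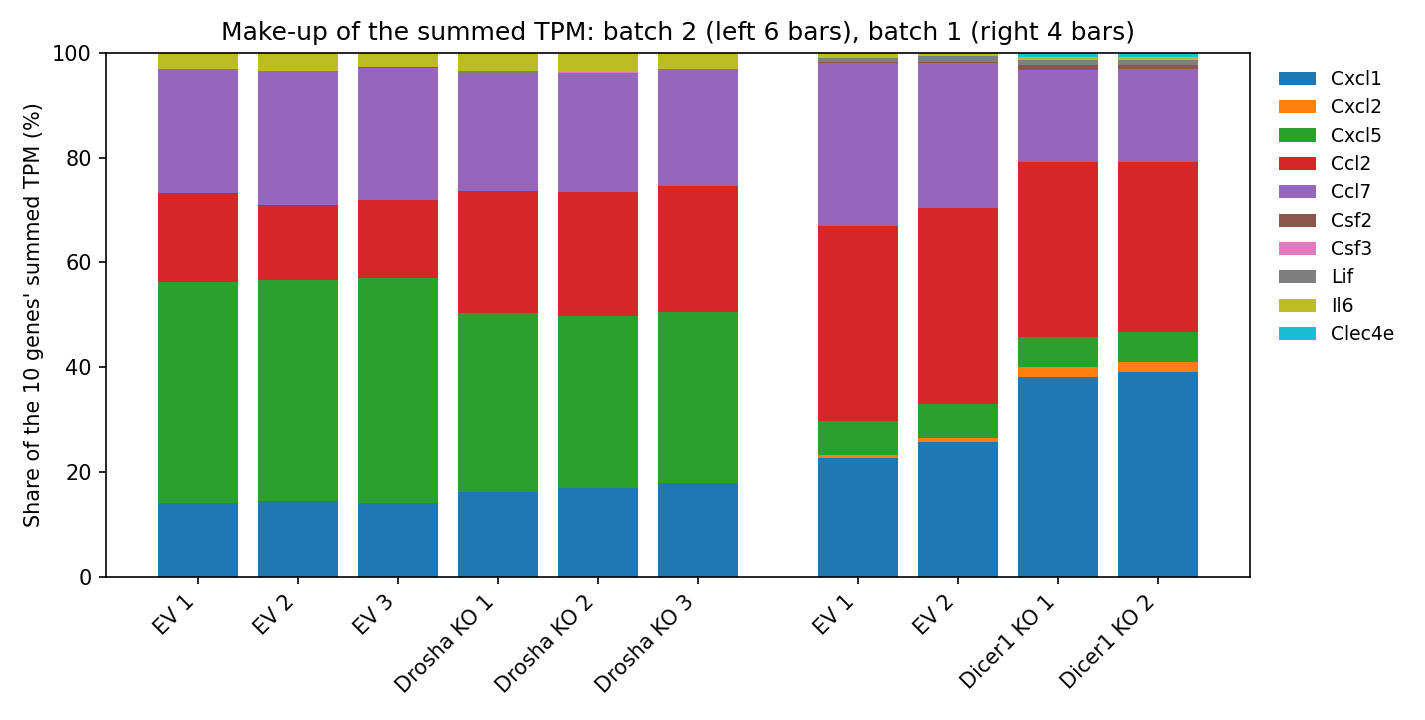
Share of each member in the summed TPM of the 10 members, in percent, as 1 stacked bar per library. Cxcl5 is the largest part of the batch 2 bars, Ccl2 of the batch 1 empty vector bars and Cxcl1 of the Dicer1 knockout bars.

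Whether the changes in the knockouts differ in size was tested with limma over the 10 libraries together, on the genes tested in both tables. The 5 members in that test were Cxcl1, Cxcl5, Ccl2, Ccl7 and Il6. Of these, 3 were called with a smaller change in the Drosha than in the Dicer1 knockout and 0 with a larger one. Of the 11146 genes tested, 18.1% and 17.4% were so called (35.5% in either direction). The Drosha change minus the Dicer1 change was -1.52 ± 0.09 for Cxcl1 (SE, adjusted p = 4.50e-06, limma), -1.23 ± 0.12 for Cxcl5 (adjusted p = 6.47e-05) and -0.49 ± 0.14 for Ccl7 (adjusted p = 0.0246). For Ccl2 it was -0.31 ± 0.12 (adjusted p = 0.0766, limma) and for Il6 -0.77 ± 0.27 (adjusted p = 0.0537), which missed the threshold without showing that the changes were alike. The Ccl7 difference was lost without the third Drosha knockout library (adjusted p = 0.0533), without the second batch 2 empty vector library (adjusted p = 0.0540) and without the second Dicer1 knockout library (adjusted p = 0.0939). The difference is between knockouts and between batches at once. Its fit takes 1 variance per gene over both batches, although the batch 1 empty vector libraries differed more from each other than those of batch 2. The standard errors and p-values of the difference thus rest in part on the tighter spread of batch 2.

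Other chemokines were mixed. Of 18 further CC chemokines, 5 were tested for Drosha, where 2 rose and 1 fell (median log2 change 0.33), and 6 for Dicer1, where 0 rose and 3 fell (median -0.97). Of all genes tested, 35.8% rose and 7.57% fell for Drosha, and 21.5% rose and 9.6% fell for Dicer1. One of the 3 falls, Ccl17, stood at 1.56 and 1.07 TPM in the controls and at 0 in the knockout, and it passed the filter only through the controls. Its call was lost under the replicate block (adjusted p = 0.0600, limma) and without the first or the second knockout library (0.182 and 0.169). Ccl5, which attracts T cells and monocytes, stood at 4.16, 6.596 and 4.46 TPM in the batch 2 empty vector and at 12.004, 9.51 and 10.3 in the Drosha knockout. In batch 1 it stood at 226.4 and 332.9 TPM in the controls and at 45.5 and 45.8 in the Dicer1 knockout. It thus rose in one (log2 change 0.95 ± 0.16, adjusted p = 0.00240, limma) and fell in the other (-2.56 ± 0.19, adjusted p = 0.00337), and the difference of 3.51 ± 0.27 passed the test (adjusted p = 1.94e-05). Ccl9, a macrophage chemokine of the mouse, followed the same pattern, with log2 changes of 0.73 ± 0.09 and -1.38 ± 0.22.

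Of 13 further CXC and CX3C chemokines, 0 of 7 tested passed in the Drosha comparison (limma, median log2 change 0.08), and 2 had an unadjusted p below 0.05. With median-ratio scaling 2 of them were called lower, as were 16.7% of all genes tested for Drosha. On the deposited scale, 35.8% of all genes rose and 7.57% fell for Drosha, and 21.5% rose and 9.6% fell for Dicer1. In the Dicer1 comparison 1 of 6 rose, Cxcl16, and 4 fell (median -1.13). One of the 4, Cxcl13, was at 0 in the knockout and passed the filter only through the controls. With either Dicer1 knockout library left out, 0 were called higher and 2 lower. Cxcl12, the stromal retention signal of blood stem cells, had a mean of 258.2 TPM in the batch 1 empty vector and 114.3 in the Dicer1 knockout (log2 change -1.12 ± 0.25, adjusted p = 0.0249, limma). That call was lost without the first or the second Dicer1 knockout library (adjusted p = 0.0834 and 0.0839). Cxcl10, an interferon-induced T cell attractant, fell from 54.8 to 10.4 TPM (log2 change -2.26 ± 0.30), and Cx3cl1 from 59.99 to 26.5 (-1.14 ± 0.13). In the Dicer1 knockout, Cxcr2 and Ccr2 ligands among the members were thus higher while these chemokines were lower.

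Of 21 other growth factors and cytokines, 13 were tested for Drosha, where 2 rose and 4 fell, and 14 for Dicer1, where 4 rose and 1 fell, beside the shares of all genes given above. Il15, 1 of the 4 Drosha falls, passed the filter only through the controls. Cntf, 1 of the 4 Dicer1 rises, passed it only because of the knockout libraries. Both are in these counts, but their calls are not read here. With median-ratio scaling the Drosha counts were 1 and 6 and the Dicer1 counts 3 and 3, and with either Dicer1 knockout library left out 1 rose there. Without the first batch 1 empty vector library 0 fell there. Csf1, the macrophage growth factor, was 98.3 TPM in the batch 2 empty vector and 140.3 in the Drosha knockout (log2 change 0.51 ± 0.04, adjusted p = 7.38e-05, limma). In batch 1 it went from 146.3 to 232.3 TPM (0.67 ± 0.14, adjusted p = 0.0202, and 0.0879 and 0.109 without the first or the second knockout library). Il1a, a cytokine that activates NF-kB through Il1r1, rose from 2.77 to 15.6 TPM in the Dicer1 knockout (2.13 ± 0.21, adjusted p = 0.00539, limma). Il1rn, the antagonist that competes for the same receptor, stood at 10.0 TPM in the batch 1 empty vector and at 0.182 in the Dicer1 knockout (-3.20 ± 0.26). It passed that filter through the controls alone, so it is in the count above but its call is not read here. In the Drosha knockout Il1rn fell from 139.1 to 99.9 TPM (-0.47 ± 0.07, adjusted p = 0.00118, limma). Kitl, the stem cell factor, fell by 0.48 ± 0.06 on the log2 scale in the Drosha knockout and rose by 0.59 ± 0.14 in the Dicer1 knockout (adjusted p = 0.0309, limma). The difference of -1.07 ± 0.14 passed the test (adjusted p = 4.00e-04), while the Dicer1 call was lost with median-ratio scaling (adjusted p = 0.115) and without the first or the second knockout library (0.180 and 0.116).

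Few receptors for the member ligands were measurable: of 18 listed, 7 were tested for Drosha and 5 for Dicer1, and 2 rose in each. With median-ratio scaling 3 more were called lower for Drosha, and with either Dicer1 knockout library left out 0 were called for Dicer1. Il6ra, the Il6-binding chain, rose in both, from 2.20 to 4.75 TPM (log2 change 0.84 ± 0.10, adjusted p = 5.71e-04, limma) and from 4.79 to 13.6 TPM (1.34 ± 0.17, adjusted p = 0.00809). Lifr rose in the Drosha knockout (0.50 ± 0.06) and Osmr, the oncostatin M receptor, in the Dicer1 knockout (0.71 ± 0.12). Of the JAK and STAT3 signalling genes, 8 of 11 tested rose and 0 fell in the Drosha knockout, and 4 of 12 rose and 2 fell in the Dicer1 knockout. Over all genes 35.8% rose for Drosha, and 21.5% rose and 9.6% fell for Dicer1. Jak2 and Stat3 rose in the latter by 0.97 ± 0.10 and 0.59 ± 0.12 on the log2 scale. The genes of this list called higher came to 4 and 2 with median-ratio scaling, and for Dicer1 to 0 and 1 without the first or the second knockout library.

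Genes that carry signals to NF-kB were measured in full in both tables. Of 24 activation pathway genes, 14 rose and 1 fell in the Drosha knockout (median log2 change 0.21), and 13 rose and 1 fell in the Dicer1 knockout (median 0.48). The shares of all genes called higher were 35.8% and 21.5%. With median-ratio scaling the genes called higher came to 5 and 9, when 18.2% and 12.9% of all genes were, and for Dicer1 they came to 4 with either knockout library left out. Tlr2, a receptor for bacterial lipoproteins, went from 42.6 to 113.3 TPM in the Dicer1 knockout (log2 change 1.39 ± 0.12, adjusted p = 0.00438, limma). Tnfrsf1b, a TNF receptor, went from 27.8 to 86.5 TPM (1.60 ± 0.10, adjusted p = 0.00232). Ikbkg, the regulatory subunit of the IkB kinase, rose from 46.7 to 129.9 TPM in the Dicer1 knockout (1.46 ± 0.10) and from 27.4 to 39.5 in the Drosha knockout (0.51 ± 0.08). The gene that fell in both was Il1r1, the interleukin 1 receptor, by 1.54 ± 0.19 on the log2 scale in the Dicer1 knockout. In the test of the Drosha change minus the Dicer1 change, 12 of the 24 genes were called below 0 and 3 above 0. Of all genes in that test, 18.1% were called below 0 and 17.4% above 0. One of the 3 pathway genes called above 0 was Il1r1, which fell less in the Drosha knockout.

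The feedback and response genes of NF-kB came to 5 of 16 tested that rose and 3 that fell in the Drosha knockout (median log2 change 0.09), against 35.8% and 7.57% of all genes. In the Dicer1 knockout, where 21.5% of all genes rose and 9.6% fell, 11 of 17 rose and 2 fell (median 0.66), and 5 rose without the first knockout library. Ptgs2, the inducible cyclooxygenase, stood at 73.9 and 90.7 TPM in the batch 1 empty vector and at 557.5 and 520.2 in the Dicer1 knockout (log2 change 2.70 ± 0.12, adjusted p = 0.00171, limma). Nos2, the inducible nitric oxide synthase, rose by 1.89 ± 0.24 and Birc3, an inhibitor of apoptosis, by 1.58 ± 0.17 on the log2 scale. C3, the central complement component, fell in both, from 370.8 to 182.6 TPM in the Drosha knockout and from 203.3 to 86.9 TPM in the Dicer1 knockout. Vcam1, a leukocyte adhesion molecule, rose from 262.5 to 405.3 TPM in the Drosha knockout (0.62 ± 0.03, adjusted p = 1.73e-05, limma). Lcn2, which binds bacterial siderophores, fell there by 0.89 ± 0.08 on the log2 scale and rose in the Dicer1 knockout by 0.66 ± 0.08 (adjusted p = 0.00777, limma). The difference of -1.54 ± 0.11 passed the test (adjusted p = 1.26e-05), while the Dicer1 call was lost without the first or the second knockout library (adjusted p = 0.0726 and 0.0702).

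The C/EBP and AP-1 factors were called in both directions. In the Drosha knockout 9 of 13 tested rose and 2 fell, and in the Dicer1 knockout 4 of 13 rose and 5 fell. Of all genes, 35.8% rose and 7.57% fell for Drosha, and 21.5% rose and 9.6% fell for Dicer1. With quantile normalization 3 were called higher for Drosha, and with either knockout library left out 1 was called higher and 3 lower for Dicer1. Fos, an immediate early AP-1 subunit, rose from 2.11 to 9.56 TPM in the Drosha knockout (log2 change 1.77 ± 0.12, adjusted p = 5.20e-05, limma) and fell from 24.2 to 2.44 TPM in the Dicer1 knockout (-2.79 ± 0.35, adjusted p = 0.00777). The difference of 4.56 ± 0.36 passed the test (adjusted p = 2.20e-05, limma). Fosl2, another AP-1 subunit, rose in the Dicer1 knockout by 1.37 ± 0.09, while Fosb and Atf3 fell by 2.29 ± 0.25 and 2.09 ± 0.40. Cebpd rose in the Drosha knockout by 0.70 ± 0.08.

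Of 15 proteins that bind or degrade cytokine mRNAs, 10 rose and 0 fell in the Drosha knockout, and 6 rose and 0 fell in the Dicer1 knockout. Of all genes, 35.8% rose and 7.57% fell in the first, and 21.5% rose and 9.6% fell in the second. With median-ratio scaling the genes called higher came to 1 and 2, and 1 was called lower for Dicer1. With either Dicer1 knockout library left out, 0 were called higher there. Zfp36, which binds AU-rich elements and leads to decay, rose from 22.0003 to 35.9 TPM in the Drosha knockout (log2 change 0.68 ± 0.06, adjusted p = 1.58e-04, limma). Zc3h12a (Regnase-1), a nuclease of Il6 mRNA, rose from 56.2 to 92.6 TPM in the Dicer1 knockout (0.71 ± 0.11, adjusted p = 0.0117, limma). Arid5a, which protects Il6 mRNA from that nuclease, rose there from 11.3 to 22.7 TPM (0.94 ± 0.14, adjusted p = 0.00965).

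Among 12 Mincle partners and related lectins, 1 of 4 tested rose in the Drosha knockout and 2 of 5 in the Dicer1 knockout. Of all genes tested, 35.8% and 21.5% rose. With median-ratio scaling 1 of these lectins and partners was called higher for Dicer1. Clec4d, the lectin that pairs with Mincle, stood at 1.59 and 0.660 TPM in the batch 1 empty vector and at 12.7 and 13.2 in the Dicer1 knockout. The second control lay below 1 TPM, so Clec4d passed the filter only because of the knockout libraries. It is in the count above, but its call is not read here. Like Clec4e, it was listed at 0 in all 6 batch 2 libraries. Bcl10, a signalling partner below Card9, rose in both, by 0.34 ± 0.04 and 0.61 ± 0.17 on the log2 scale, and the second call was lost with median-ratio scaling (adjusted p = 0.138, limma).

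**Figure D4:**
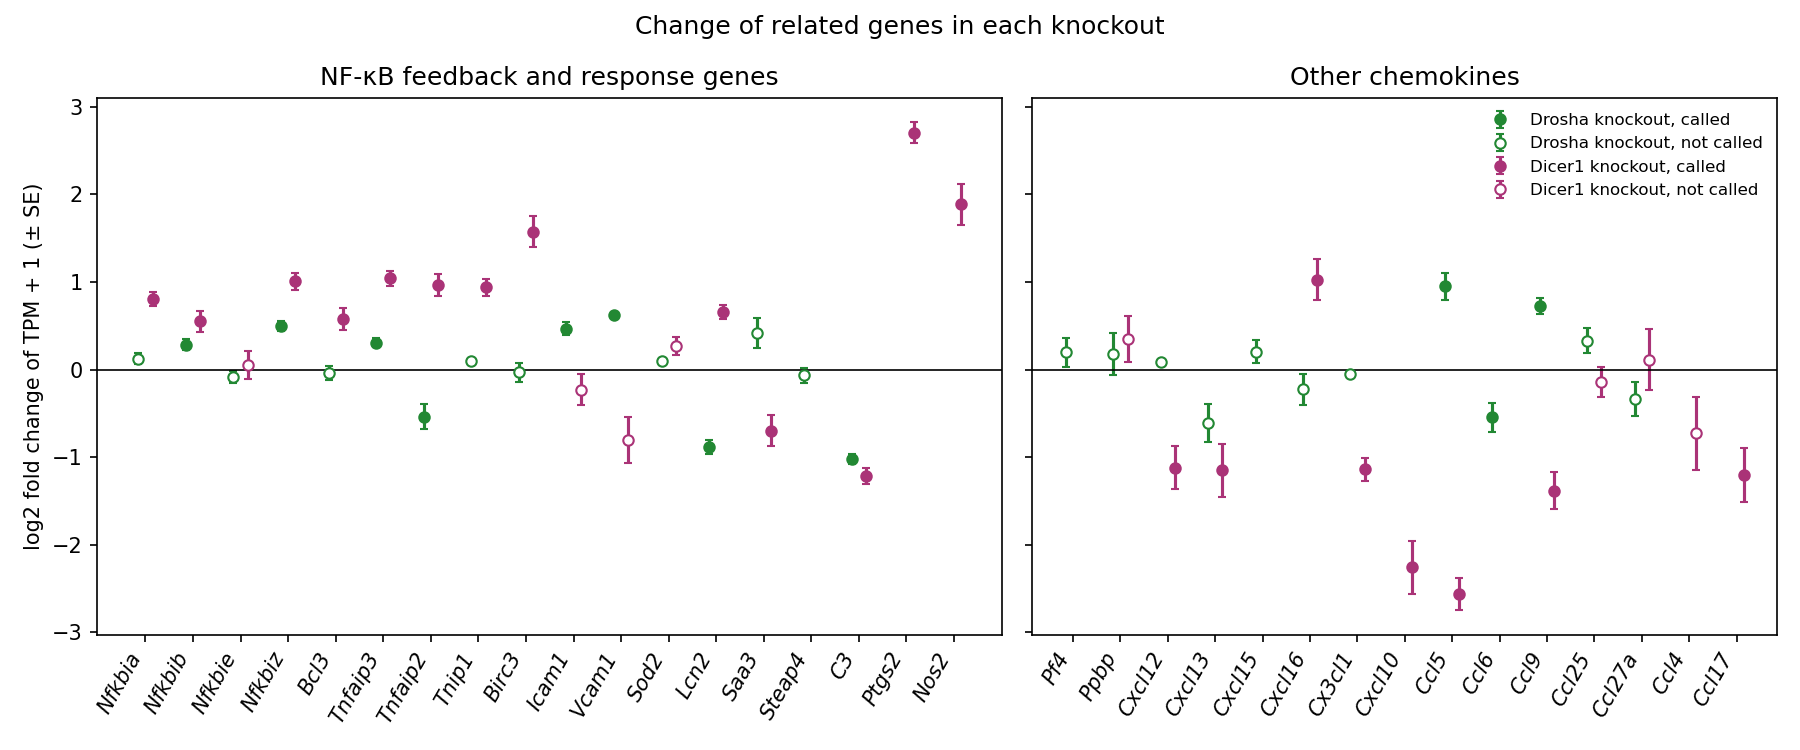
Log2 change of the tested NF-kB feedback and response genes (left) and of the tested other chemokines (right). Each knockout is set against the empty vector of its own table, with 1 point per gene and knockout. Bars are 1 standard error, filled points were called and open points were not. Medians are not drawn. NF-kB response genes have a median of 0.66 in the Dicer1 and 0.09 in the Drosha knockout, and the other CC chemokines one of -0.97 and 0.33.

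Because these genes are also made by leukocytes, markers of other cells were read in the same libraries. The 16 macrophage markers summed to 30.7 to 38.3 TPM in the batch 1 empty vector and 36.3 to 39.5 in the Dicer1 knockout, ranges that overlapped, and 0 of the 3 tested were called (limma), with 0 at an unadjusted p below 0.05. In batch 2 they summed to 28.6 to 30.9 TPM in the empty vector and 30.02 to 34.4 in the Drosha knockout, where Cd14 rose (log2 change 0.40 ± 0.11, adjusted p = 0.0178, limma, and 0.0770 with median-ratio scaling). Between 7 and 9 of the 16 were at 0 in each library, Tyrobp and C1qa were at 0 in all 10, and Ptprc, the common leukocyte marker, did not exceed 0.142 TPM. The 9 neutrophil markers summed to 7.94 to 8.45 TPM in the batch 1 empty vector and to 12.2 to 17.1 in the Dicer1 knockout. In batch 2 they summed to 2.40 to 4.71 TPM in the empty vector and to 0.961 to 1.67 in the Drosha knockout. The ranges were thus apart in both batches, with the Dicer1 knockout above and the Drosha knockout below its controls. Ly6g was at 0 in all 10 libraries. S100a8, which neutrophils store in large amounts, stood at 0 and 0.814 TPM in the batch 1 controls and at 3.06 and 4.12 in the Dicer1 knockout. It passed the filter only through the knockout libraries, so its call is not read here. The part of these markers in the members' changes was not tested. The 8 endothelial markers summed to at most 2.85 TPM, and none was tested.

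Adipocyte markers mostly fell in both knockouts. Of the 11 tested for Drosha, 1 rose and 8 fell, and of the 9 tested for Dicer1, 0 rose and 7 fell, which came to 4 without the first batch 1 empty vector library. Of all genes tested, 35.8% rose and 7.57% fell for Drosha, and 21.5% rose and 9.6% fell for Dicer1. Adipoq, Plin1 and Cfd passed the Dicer1 filter only through the controls, so they are in the count above but their Dicer1 calls are not read here. Adipoq, the adipocyte hormone adiponectin, fell from 234.6 to 110.4 TPM in the Drosha knockout (log2 change -1.08 ± 0.05, adjusted p = 9.64e-06, limma). In batch 1 it stood at 49.0 TPM in the empty vector and at 0.156 in the Dicer1 knockout (-5.39 ± 0.29). Bone marrow stromal markers, which share Cxcl12, Kitl and Vcam1 with the lists above, summed to 7524 to 8058 TPM in the batch 2 and 1717 to 2088 TPM in the batch 1 empty vector, so the control cultures of the batches also stood apart here. They summed to 7706 to 7872 TPM in the Drosha and 1125 to 1161 TPM in the Dicer1 knockout. The part of these shifts in the members' changes was not tested.

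Genes whose pattern was most like that of Cxcl1, the member with the highest mean, were ranked by Pearson's correlation over the 10 libraries, each set against its own empty vector mean, among 9574 genes. The nearest were Tnfaip3 (r = 0.9986), a feedback inhibitor of NF-kB, and then Arid3a, Serpinb9b, App and Ugcg (0.9963 to 0.9964). The 10 points share 2 knockouts, and the 2 Dicer1 knockout libraries set most of the range, so these values are a description. Tnfaip3 stood at 9.59 TPM in the batch 2 empty vector and 12.1 in the Drosha knockout, and at 41.9 and 87.3 in batch 1. Serpinb9b, a member of a family of similar protease inhibitors whose reads may be shared, stood at 0.157 and 1.89 TPM in batch 2 and at 7.85 and 107.7 in batch 1. Among the members, r with Cxcl1 was 0.952 for Cxcl5, 0.951 for Ccl7, 0.940 for Lif, 0.935 for Clec4e, 0.933 for Csf2, 0.931 for Cxcl2, 0.930 for Il6, 0.868 for Ccl2 and 0.346 for Csf3.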

How the data were processed

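Bead-captured mRNA of OP9 cells was sequenced in 10 libraries, and the labels name several sequencers and kits without tying them to libraries. The authors deposited TPM per gene, 1 table per knockout. Per the submitters' processing notes the tool was kallisto 0.48.0. The sources used here give neither index nor build. Depth cannot be read from TPM. For Drosha, 20024 genes without a symbol were named by Ensembl ID, and 22339 such genes were left out for Dicer1. The 3 columns of group means and ratio were not used.

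Genes with a TPM of at least 1 in 3 of 6 (Drosha) or 2 of 4 (Dicer1) libraries were tested on log2(TPM + 1) in R 4.3.3 by limma 3.58.1 (two-sided) with trended variances and Benjamini-Hochberg adjustment over all genes tested. Calls needed an adjusted p below 0.05. The fit was checked on simulated data. The members and lists were chosen with earlier results of these data known. Genes named are all members, Drosha and Dicer1, up to 4 called genes with the largest changes per list, or the 2 most abundant where none was called, and the 5 genes most like Cxcl1. Cxcl16, Tyrobp, C1qa, Ptprc and Ly6g were named after their values were seen. Same-numbered libraries did not deviate together (correlations of -0.0921 to 0.0181), so replicates were not paired. The alternatives were other pseudocounts, filters, scalings and variance settings, a replicate block and leaving out each library.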

Additional observations from a re-analysis of the deposited data

Results flagged for a closer look

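The change of Cxcl1 differed between the knockouts, tested in 1 limma fit of all 10 libraries: the Drosha change minus the Dicer1 change was -1.52 ± 0.09 (SE) on the log2 scale, with a rise in 3 of 3 Drosha and 2 of 2 Dicer1 knockout libraries. The same test gave -1.23 ± 0.12 for Cxcl5 and -0.49 ± 0.14 for Ccl7. Each knockout was measured in its own batch, so knockout and batch cannot be told apart.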

How the results depend on the processing

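With the replicate number as a replicate block, 5247 genes were called for Drosha (5486 without it), 3045 for Dicer1 (3802) and 3433 for the difference (3960), and the Ccl7 difference was lost (adjusted p = 0.0553, limma). The members called higher for Drosha were 2 with median-ratio scaling and 2 with quantile normalization, against 4, and 3 to 5 when 1 library was left out. For Dicer1, 7 to 9 members were called higher when 1 library was left out. Over all genes, the Dicer1 comparison called 1847 with no filter on low TPM and 432 to 4769 with 1 library left out. The lowest counts were 432 without the first and 679 without the second Dicer1 knockout library. The members called with a smaller change in the Drosha knockout were 6 with no filter and 5 with quantile normalization, against 3. Of all genes in that test, 11.4%, 20.3% and 18.1% were so called. With no filter, members near 0 in batch 2 also entered, so the 6 come from a larger set than the 5 members of the main test. Over the alternatives that kept every library they came to 2 to 6. Where the cause is not fewer libraries or a wider set of genes tested, the cause was not tested. No result changed direction after a call under the alternatives run. TPM gives no depth, so a value listed at 0 gives no upper limit.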
